A study of Rattus norvegicus with 10 samples.

Results

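The genes described here are the parts of the secretory pathway that a cell uses to bring a new protein into the endoplasmic reticulum (ER), fold it and carry it on. They were chosen by gene name on the array: names starting with Sec and a digit, Cop and a subunit letter, Pdia, Ssr, Srp or Spcs, together with Hspa5, Hsp90b1, Calr, Canx, Xbp1, Atf4, Atf6, Ddit3 and Dnajb9. The rule found 61 of the 35469 gene names, on 86 of 41012 non-control probes. Of these, 44 were transport genes and 12 were folding genes. The other 5, Sec1 (a fucosyltransferase) and the lipid-binding Sec14l1, Sec14l2, Sec14l3 and Sec14l5, share only the letters and were counted in neither class.

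The 3 dams, of the inbred rat strain F344/N, were milked on d 2, d 9 and d 16 after birth of the pups, and gave serum on d 21. The rats had been obtained pregnant at 14 weeks of age and carried no transgene or treatment that separates the groups. Oxytocin was given before milking, and whey and serum were spun and filtered, so that the material is RNA left in cell-free fluid. Each day had 3 whey arrays, 1 per dam, and the mixed serum RNA of the 3 dams was on 1 array, so that serum has no replicate.

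Proteins with a signal peptide are recognised on the ribosome by the signal recognition particle, docked at its receptor and passed through the Sec61 channel into the ER, where signal peptidase cuts the signal off. Chaperones such as BiP (Hspa5), calnexin (Canx) and calreticulin (Calr) and the protein disulfide isomerases (Pdia genes) then fold the chain, and COPII and COPI coats carry cargo from the ER to the Golgi and back. When folding falls behind, the sensors of the unfolded protein response raise chaperone genes through the transcription factors ATF6 and XBP1 and act through ATF4. The lactating mammary cell runs this route at a high rate, since caseins, α-lactalbumin and whey acidic protein all pass through it.

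The best known DNA element of this response is the ER stress response element, CCAAT and CCACG spaced by 9 bases, which is shown here because several of the folding genes described here hold it. It was searched on both strands in the 250 bases before the start of each gene in RefSeq's table of the rat assembly GRCr8. Of the 61 member genes, 54 had a promoter there. The element was found in 3 of 9 folding genes (Hspa5, Canx and Calr), in 0 of 40 transport genes and in 0.0657% of all 33469 promoters. Hsp90b1, which the array names Tra1 and which is therefore no member by name, held it as well. Capitals mark the element, and each stretch reads 5′ to 3′ toward the gene and ends at the base before its start.
Hspa5, chr3:38452766-38453015 (+ strand): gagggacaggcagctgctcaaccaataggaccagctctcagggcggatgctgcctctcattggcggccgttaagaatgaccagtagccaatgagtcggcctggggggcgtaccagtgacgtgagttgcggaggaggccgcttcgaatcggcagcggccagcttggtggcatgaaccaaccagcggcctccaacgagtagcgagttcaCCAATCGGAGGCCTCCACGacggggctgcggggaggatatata
Canx, chr10:35157858-35158107 (- strand): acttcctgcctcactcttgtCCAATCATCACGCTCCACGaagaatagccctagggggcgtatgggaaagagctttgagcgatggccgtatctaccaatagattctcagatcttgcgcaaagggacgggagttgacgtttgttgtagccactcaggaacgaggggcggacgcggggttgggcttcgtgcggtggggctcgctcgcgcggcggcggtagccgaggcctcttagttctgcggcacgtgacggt
Calr, chr19:40213117-40213366 (+ strand): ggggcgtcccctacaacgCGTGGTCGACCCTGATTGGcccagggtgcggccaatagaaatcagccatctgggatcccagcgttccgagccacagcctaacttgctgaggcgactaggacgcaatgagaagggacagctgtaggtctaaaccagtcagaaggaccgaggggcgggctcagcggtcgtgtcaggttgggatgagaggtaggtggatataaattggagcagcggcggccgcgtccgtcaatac
Hsp90b1, chr7:23012294-23012543 (- strand): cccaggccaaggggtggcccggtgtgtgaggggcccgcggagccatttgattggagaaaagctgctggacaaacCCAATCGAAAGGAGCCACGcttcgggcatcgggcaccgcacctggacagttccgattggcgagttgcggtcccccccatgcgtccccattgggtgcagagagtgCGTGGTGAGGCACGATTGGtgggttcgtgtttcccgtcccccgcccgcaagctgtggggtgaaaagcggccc

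Counting the base before the start as -1, the element began at -43 in Hspa5, at -230 in Canx and at -232 in Calr, where it lay on the opposite strand. Hsp90b1 held it on both strands. A related element, ATTGG and CCACG spaced by 1 base, was in none of the member promoters and in 0.0418% of all. The shorter TGACGTG, a core that XBP1 and ATF6 can bind, was in 4 of 40 transport promoters (Copb2, Sec16a, Sec23a and Srp19), in 1 of 9 folding promoters (Hspa5) and in 1.54% of all. A match is only a match of letters in this window, and no binding was measured.

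Most of the genes were measurable in whey. A gene counted as detected in a group if, on any of its arrays, the probe was both flagged as well above background and brighter than 20 in processed signal, and each gene was followed by the probe with the most arrays so flagged. Of the 44 transport genes, 37 were detected on d 2, 39 on d 9 and 35 on d 16, and of the 12 folding genes 9, 10 and 10. In serum 10 transport genes and 3 folding genes (Atf4, Calr and Hspa5) were detected. The transport genes Sec61a2, Sec61gl, Sec63, Sec16a and Sec31b and the folding genes Pdia2 and Pdia4 did not pass in whey, nor did Sec1, Sec14l3 and Sec14l5, which left 39 transport genes, 10 folding genes and 2 others for the tests. Sec23a and Sec3l1 (a subunit of the exocyst, now Exoc1) passed on d 9 alone. No probe carried the names Hsp90b1, Xbp1, Spcs3 or Srp54.

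The arrays differed in brightness, and the days in slide. The 75th percentile of the processed signal ran from 12.5 to 83.2 over the whey arrays and was 4.11 in serum, which quantile normalization set equal. Slides were not labelled, and arrays with the same scan start in their headers were taken as 1 slide. By this, the d 2 arrays of rats 1 and 2 were on a slide of their own and d 2 of rat 3 shared a slide with the 3 d 9 arrays. The d 16 arrays shared one with serum and were scanned on another day than the rest, so that d 16 cannot be told apart from its slide and scan day. Levels below are log2 of the normalized signal, which can be compared between arrays but not between genes. All 9 markers of milk-secreting epithelium were detected on each day and their summed signal ran from 1030000 to 1400000 over the whey arrays. Of 8 tested macrophage markers 7 rose by d 16 and 1 (Cd14) fell, with a summed signal of 433 to 542 on d 2, 525 to 1160 on d 9, 1970 to 2370 on d 16 and 10700 in serum, while of the 9 epithelial markers Csn2, Lalba and Wap rose by 1.05, 1.02 and 0.70 by d 16 (adjusted p = 0.00567, 0.00966 and 0.0162), and the keratins Krt8 and Krt18 fell by 1.16 and 0.72 (adjusted p = 0.006 and 0.0206). Liver markers were not detected in whey, and of the plasma cell markers on the array 1 of 7, Sdc1, was. The part of these shifts in the results below was not tested.

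Between d 2 and d 9, 3 of 10 tested folding genes rose and none fell, while 5 of 39 transport genes rose and 2 fell (limma, adjusted p under 0.05). Over all 14247 tested gene names 11.0% rose and 6.65% fell. Between d 2 and d 16, 4 folding genes rose and none fell, and 5 transport genes rose and 8 fell, against 16.2% and 12.6% of all tested gene names. The folding genes had a median log2 change of 0.18 to d 9 and 0.38 to d 16, the transport genes of 0.12 and 0.02, and all tested gene names of 0.11 and 0.04. In whey RNA, fewer cells shedding a transcript and less of it per cell cannot be told apart. These counts depend on single arrays: leaving out d 2 of rat 2 or d 9 of rat 2 left 1 transport gene called by d 9, and by d 16 the 13 transport calls dropped to 8 without d 2 of rat 2, 6 without d 2 of rat 3, 6 without d 16 of rat 2 and 5 without d 16 of rat 3.

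**Figure D1:**
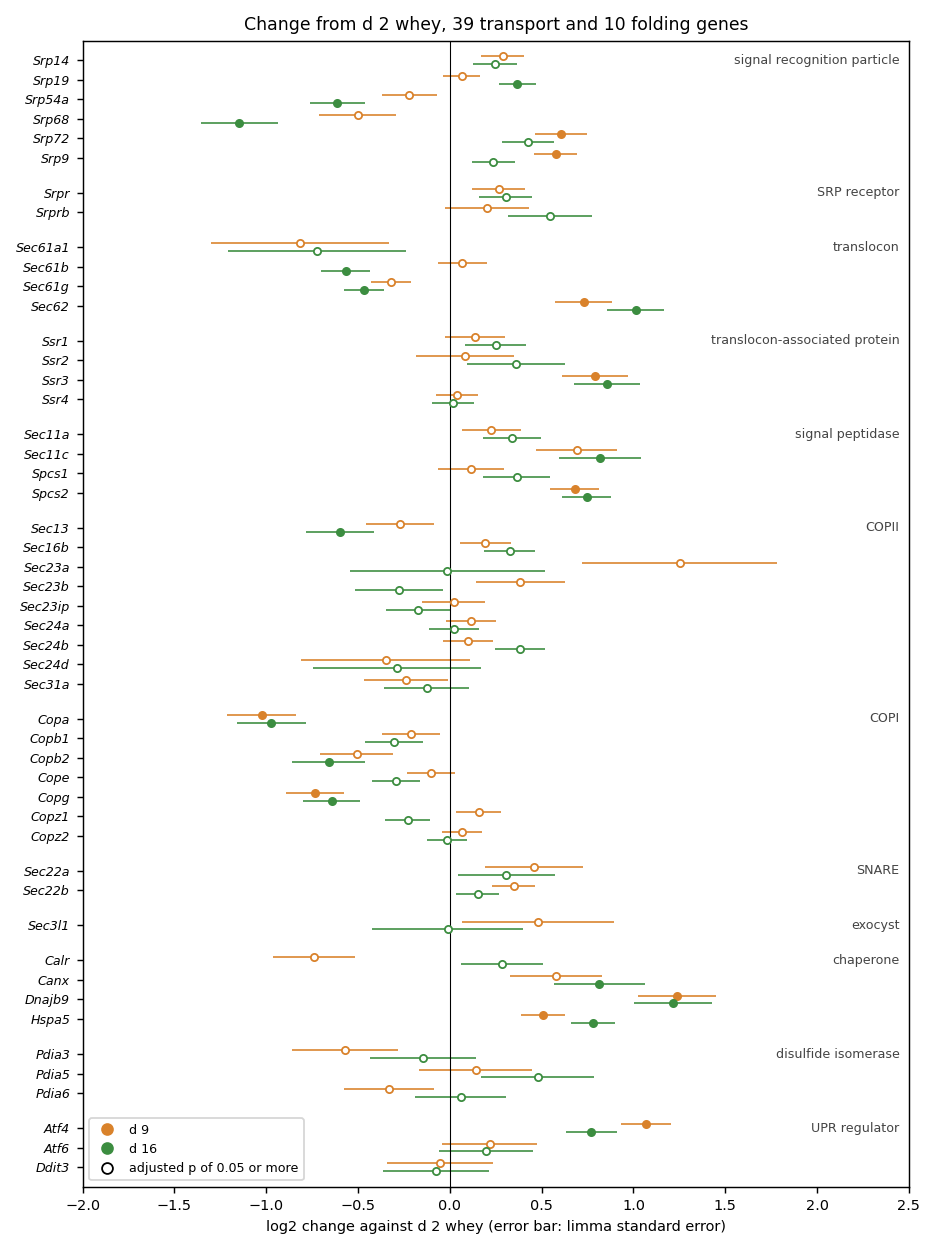
Log2 change from d 2 whey to d 9 (orange) and d 16 (green) for the 39 transport and 10 folding genes tested, grouped by complex, with limma standard errors; filled points passed at an adjusted p under 0.05. The called folding genes all lie to the right of 0, from 0.51 for Hspa5 at d 9 to 1.24 for Dnajb9 at d 9. Every called vesicle coat gene lies to the left. Under spike-in scaling Copa and Copg at d 9 lay to the right, and Copg, Copb2 and Sec13 at d 16 lay at -0.10 to -0.06. Sec23a was not well above background on d 2 or d 16, so its points are no measured change.

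No member passed between d 9 and d 16, where 0.604% of all tested gene names rose and 0.877% fell. At an unadjusted p under 0.05 there were 8 of 39 transport genes and 1 of 10 folding genes, against 19.2% of all tested gene names, so that neither count stood out from the background. Sec61b and Calr came close. Sec61b fell by 0.64 (adjusted p = 0.07) and Calr rose by 1.02 (adjusted p = 0.0767). Both passed under 4 alternatives (minimum signal 100, well above background on all 9 whey arrays, normexp background and slide as a random block), with adjusted p of 0.00937 to 0.0314 for Sec61b and 0.0247 to 0.0351 for Calr. The Tukey-Kramer test called none of all tested probes in this interval. In the F test over the 3 days, 11 of 39 transport genes and 4 of 10 folding genes passed, against 25.8% of all tested gene names.

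Of the 4 tested chaperones 2 rose by d 9 and 3 by d 16, and of the 3 tested regulators of the response 1, Atf4, rose on both days. Over all tested gene names 11.0% rose by d 9 and 16.2% by d 16, and groups this small cannot be set apart from such shares. Hspa5, the main Hsp70 of the ER (probe at chr3:13787739-13787798, rn4), read 7.54, 7.49 and 7.36 in rats 1, 2 and 3 on d 2, 8.04, 8.06 and 7.81 on d 9, and 8.18, 8.29 and 8.25 on d 16. Every d 9 and d 16 value lay above every d 2 value. The rise was 1.42-fold by d 9 (log2 0.51 ± 0.12 SE, adjusted p = 0.0254) and 1.72-fold by d 16 (0.78 ± 0.12, adjusted p = 0.00335). The d 9 call was lost without d 2 of rat 2 or 3, d 9 of rat 1 or 2 or d 16 of rat 3 (adjusted p of 0.0502 to 0.0876), while the d 16 call was kept without each of the 9 arrays.

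Dnajb9, an ER co-chaperone of the Hsp40 family that works with BiP (chr6:63583604-63583663), made the largest rise of the folding genes in the fit reported. Its size depended on the processing. Over the alternatives its change went down to 0.41 to d 9 and 0.39 to d 16, where that of Atf4 went no lower than 0.93 and 0.69. It read 4.14, 4.16 and 4.68 on d 2, where it was well above background on 2 of 3 arrays, 5.42, 5.88 and 5.39 on d 9, and 5.79, 5.44 and 5.39 on d 16. All later values lay above all d 2 values. The change was 2.36-fold by d 9 (1.24 ± 0.21, adjusted p = 0.00966) and 2.32-fold by d 16 (1.22 ± 0.21, adjusted p = 0.0059). A second Dnajb9 probe moved the same way, by 1.63 to d 9 (adjusted p = 0.0659) and 1.92 to d 16 (adjusted p = 0.0286).

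The lectin chaperones calnexin and calreticulin bind glycoproteins as they fold. Canx read 6.68, 6.26 and 6.27 on d 2, 7.34, 6.69 and 6.91 on d 9 and 7.38, 6.78 and 7.49 on d 16, a rise of 0.81 ± 0.25 by d 16 (adjusted p = 0.0437) in all 3 dams. A second, dimmer Canx probe rose by 0.38 and did not pass (adjusted p = 0.309), and the call of the first was lost without d 2 of rat 2 or 3, d 9 of rat 2 or 3 or d 16 of rat 1 or 3 (adjusted p of 0.0507 to 0.138). Calr took another course, with 6.60, 6.40 and 5.98 on d 2, 5.81, 5.76 and 5.21 on d 9 and 6.43, 6.62 and 6.79 on d 16. Its d 9 values were the lowest, all below every d 2 value, but the difference of -0.74 did not pass (adjusted p = 0.058). It did pass with normexp background, with minimum signal 100, among probes well above background on each of the 9 whey arrays, with slide as a random block and without d 2 of rat 3 (adjusted p of 0.0281 to 0.0388). Tra1, the file's name for the ER Hsp90 that is now Hsp90b1, was looked up after its values could be seen: its brighter probe did not change by d 9 beyond the error (0.00, adjusted p = 0.996) and rose by 1.37 by d 16 (adjusted p = 0.0212), while the other probe changed by -0.51 and 0.52 and did not pass.

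The disulfide isomerases showed no called change. Pdia3, which works with calnexin and calreticulin, changed by -0.57 ± 0.29 to d 9 and -0.15 to d 16. Pdia6 changed by -0.33 and 0.06, and Pdia5, detected on no d 2 array, by 0.14 and 0.48. Adjusted p-values of the 3 genes ran from 0.204 upward, and in all 3 the values of both later days overlapped with those of d 2, as in Pdia6, where d 9 ran from 6.87 to 7.71 and d 2 from 7.44 to 7.89. Pdia4 was well above background on 1 d 9 array only, and Pdia2 on none.

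**Figure D2:**
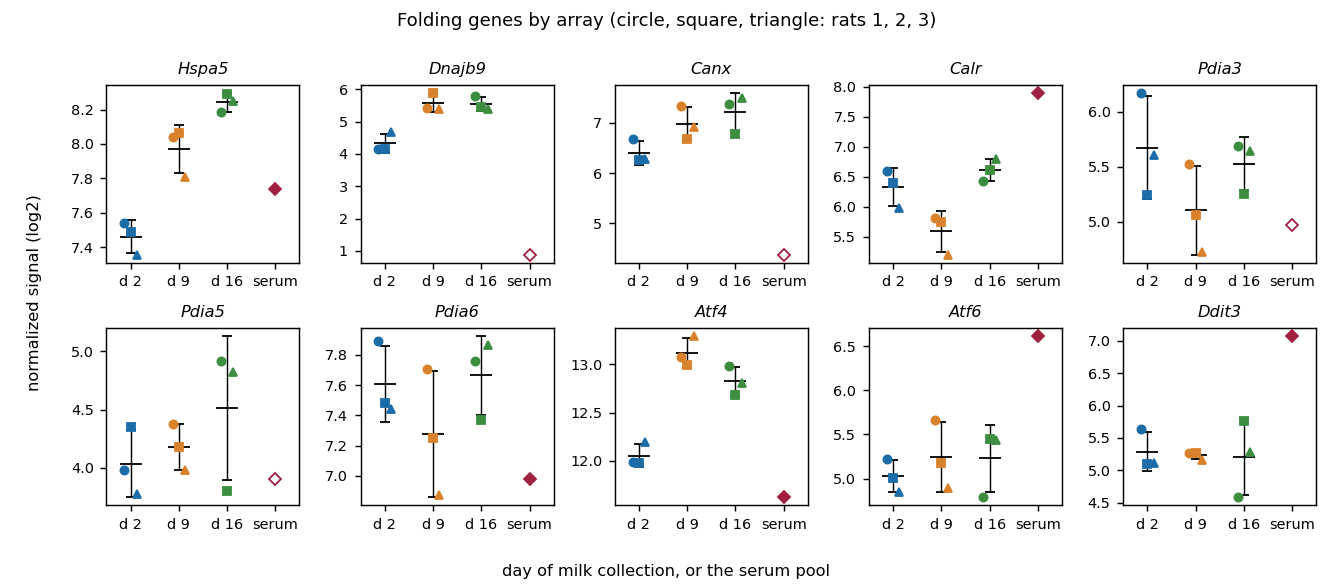
Normalized signal (log2) of the 10 tested folding genes on each array, with rats 1, 2 and 3 as circle, square and triangle, the day mean and SD (n = 3) in black, and serum as a diamond, open where its spot was not well above background; each panel has its own vertical scale. Hspa5, Dnajb9 and Atf4 on d 9 and d 16 lie above all their d 2 values, while Ddit3, Atf6 and Calr have their highest value in serum. The serum signals of Ddit3 and Atf6 were too low to count as detected.

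The regulators differed among themselves. Atf4, the transcription factor whose translation rises when the kinase PERK or another eIF2α kinase is active (chr7:118538840-118538899), read 11.99, 11.98 and 12.19 on d 2, 13.07, 12.99 and 13.30 on d 9 and 12.98, 12.68 and 12.81 on d 16. It was higher in all 3 dams on both later days, 2.10-fold on d 9 (1.07 ± 0.14, adjusted p = 0.00432) and 1.71-fold on d 16 (0.77 ± 0.14, adjusted p = 0.00645). Ddit3 (CHOP), a factor downstream of ATF4 that is tied to cell death under ER stress, stayed near its d 2 level: 5.63, 5.10 and 5.12 on d 2, 5.27, 5.27 and 5.16 on d 9, and 4.58, 5.76 and 5.29 on d 16. Its changes were -0.05 ± 0.29 and -0.08 ± 0.29 (adjusted p = 0.913 and 0.871). Atf6, the membrane-bound sensor that binds the element shown above once it is cut, changed by 0.22 and 0.20 on its counted probe (adjusted p = 0.581 and 0.593). A second Atf6 probe, well above background on 1 d 9 array, 1 d 16 array and no d 2 array, was higher on d 16 (adjusted p = 0.0244), with a bound of 1.71-fold.

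The genes of the response outside the name rule were taken from a list of sensors and targets, of which 18 were tested. By d 9, 4 of these rose and 1 fell, and by d 16 again 4 rose and 1 fell. Of all tested gene names, 11.0% rose and 6.65% fell by d 9, and 16.2% rose and 12.6% fell by d 16. The counts of the list are within a few genes of those shares. Trib3, a pseudokinase that is a known ATF4 target, made the largest called rise of this list by d 16, from 7.77, 7.66 and 7.84 on d 2 to 8.94, 9.51 and 9.57 on d 9 and 8.82, 8.89 and 8.99 on d 16 (1.58 ± 0.18, adjusted p = 0.00297, and 1.14 ± 0.18, adjusted p = 0.00386). Chac1, another target of ATF4, which degrades glutathione, rose by 1.73 ± 0.25 and 0.98 ± 0.25 (adjusted p = 0.00568 and 0.0237). Of genes picked here after their values were seen, Asns, the asparagine synthetase induced by ATF4, rose by 0.69 to d 9 (adjusted p = 0.0412) and differed by 0.22 on d 16 (adjusted p = 0.406). Armet (now Manf), a secreted ER protein, rose by 0.56 and 0.81 (adjusted p = 0.039 and 0.00709), and Dnajc10, an ER reductase, rose by 0.76 to d 16 (adjusted p = 0.0153). Sdf2l1, an ER protein that works with BiP, went the other way and fell by 1.11 to d 9 and by 0.95 to d 16 (adjusted p = 0.0135 and 0.015).

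**Figure D3:**
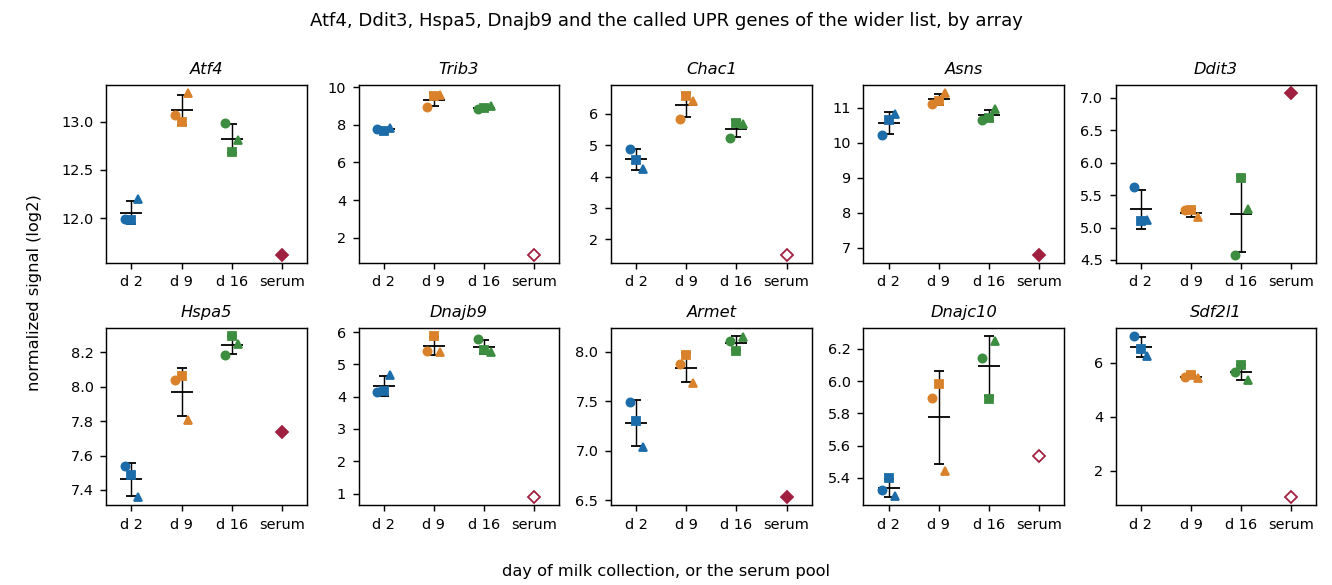
Normalized signal (log2) by array for the members Atf4, Ddit3, Hspa5 and Dnajb9 and for the 6 genes of the wider unfolded protein response list that passed a test between days, drawn as in the plot of folding genes (rats 1, 2 and 3 as circle, square and triangle, bars the day mean and SD, n = 3). Atf4, Trib3, Chac1 and Asns have their highest day mean on d 9, Hspa5, Armet and Dnajc10 on d 16. None of the genes drawn passed between d 9 and d 16, so which of these days is higher is not settled for any of them.

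At the entrance to the ER, the parts of single complexes moved in different directions. The signal recognition particle has 6 proteins, all with a probe and all detected on each day. Srp9 and Srp72 rose by d 9, by 0.58 ± 0.12 and 0.60 ± 0.14 (adjusted p = 0.0161 and 0.0259), and Srp19 rose by d 16, by 0.37 ± 0.10 (adjusted p = 0.0313). Srp54a, the GTPase that reads the signal peptide, and Srp68, an RNA-binding scaffold, fell by d 16. Srp68 read 6.64, 6.75 and 6.93 on d 2, 6.19, 6.04 and 6.59 on d 9 and 6.0, 5.40 and 5.47 on d 16, so that the groups of d 2 and d 16 were apart, and fell by 1.15 ± 0.21 (adjusted p = 0.00684). Srp54a fell by 0.61 ± 0.15 (adjusted p = 0.0201), and its other probe by 1.25 (adjusted p = 0.00356). Under spike-in scaling the counted probe of Srp54a changed by -0.04 and Srp68 by -0.555 by d 16. These stood -0.63 and -1.15 from the median of all tested genes. Srp14 changed by 0.29 and 0.25 and did not pass. The 5 probes of Srp72 changed by 0.37 to 0.60 to d 9, and 3 of them passed. Without d 2 of rat 2 or d 9 of rat 2 neither Srp9 nor Srp72 passed (adjusted p of 0.0501 to 0.0781), Srp72 also not without d 2 of rat 1 or 3 or d 9 of rat 1. Without d 2 of rat 3 or d 16 of rat 2 or 3 neither Srp19 nor Srp54a did (adjusted p of 0.0551 to 0.108), and Srp19 also not without d 2 of rat 1 or 2. The rise of Srp19 did not pass with 75th percentile scaling either.

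The receptor of the particle, Srpr (now Srpra) and Srprb, did not pass on its counted probes, with changes of 0.27 and 0.31 for Srpr and 0.20 and 0.54 for Srprb. Srpr had 4 probes that did not move together, from -0.31 to 0.50 by d 16, the last with an adjusted p of 0.043.

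Of the channel, Sec62, which helps short and late-targeted chains into the pore (chr2:116989579-116989638), rose, while the small Sec61 subunits fell. Sec62 read 7.24, 7.18 and 7.21 on d 2, 8.14, 8.06 and 7.61 on d 9 and 8.22, 8.12 and 8.32 on d 16. The d 2 values lay close together and below all others, and the rise was 1.66-fold by d 9 (0.73 ± 0.16, adjusted p = 0.0195) and 2.02-fold by d 16 (1.01 ± 0.16, adjusted p = 0.00367), with a second probe at 0.78 and 1.13 (adjusted p = 0.0365 and 0.00645). Sec61b read 12.51, 12.47 and 12.70 on d 2, 12.56, 12.53 and 12.80 on d 9 and 12.14, 11.88 and 11.96 on d 16, a fall of 0.57 ± 0.13 by d 16 (adjusted p = 0.0175) with no change by d 9 beyond the error. Sec61g fell by 0.47 ± 0.11 by d 16 (adjusted p = 0.0168). Under scaling to the spike-in controls, under which the median change of all tested genes was 1.51 to d 9 and 0.59 to d 16, Sec61b and Sec61g no longer fell by d 16 (0.02 and 0.00) but stood -0.58 and -0.59 from that median. Sec62 lost its d 9 call without d 2 of rat 2 or d 9 of rat 2 (adjusted p of 0.0611 and 0.0715), and both Sec61b and Sec61g lost theirs without d 16 of rat 2 or 3, Sec61b also without d 2 of rat 3 (adjusted p of 0.0505 to 0.0663). Sec61a1, the pore itself, was well above background on 1 of 3 d 2 arrays and changed by -0.82 ± 0.48 and -0.73 ± 0.48 (adjusted p = 0.272 and 0.298).

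The translocon-associated proteins Ssr1 to Ssr4 sit beside the pore. Ssr3 read 8.44, 8.49 and 8.33 on d 2, 9.51, 9.22 and 8.90 on d 9 and 9.31, 9.06 and 9.45 on d 16, and rose by 0.79 ± 0.18 and 0.85 ± 0.18 (adjusted p = 0.0233 and 0.0116). The other members of the complex did not pass, with changes between 0.02 and 0.36, and the level of Ssr4 stayed within 13.82 to 14.08 on all whey arrays. Ssr3 has a second probe that rose by 0.63 to d 9 (adjusted p = 0.0417) and did not pass on d 16 (0.42, adjusted p = 0.106). The d 9 call of Ssr3 was lost without any 1 d 2 array or d 9 of rat 1 or 2 (adjusted p of 0.0501 to 0.0738).

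In signal peptidase all 4 genes had positive changes on both later days, and 2 of them passed the test. Over all tested gene names 11.0% rose by d 9 and 16.2% by d 16. The signs of the 4 genes were the same under every scaling tried. Spike-in scaling put every tested member above d 2 on d 9, however, so the sign there adds nothing. Spcs1 changed by 0.115 to d 9, where the median of all tested genes was 0.107. Spcs2 read 5.64, 5.40 and 5.32 on d 2, 6.21, 6.22 and 5.96 on d 9 and 6.29, 6.16 and 6.15 on d 16, with rises of 0.68 ± 0.13 and 0.75 ± 0.13 (adjusted p = 0.015 and 0.00647). Sec11c, a catalytic subunit, rose by 0.82 ± 0.22 by d 16 (adjusted p = 0.029) and was 0.69 higher on d 9 (adjusted p = 0.0676). Sec11a and Spcs1 differed by 0.34 and 0.37 on d 16 and did not pass. Spcs2 lost its d 9 call without d 2 of rat 2 or d 9 of rat 2 (adjusted p of 0.0533 and 0.0584), and Sec11c its d 16 call without d 2 of rat 2 or 3 or d 16 of rat 1 or 3 (adjusted p of 0.0631 to 0.0969).

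Among the vesicle genes, all calls were falls: 2 of 19 tested genes fell by d 9 and 4 by d 16, and none rose, where 6.65% and 12.6% of all tested gene names fell and 11.0% and 16.2% rose. These counts are within a few genes of those shares. Under scaling to the spike-in controls Copa and Copg were 0.44 and 0.76 higher on d 9, -1.07 and -0.75 from the median of all tested genes. Of these 4 genes, 3 belong to COPI, the coat that returns material from the Golgi to the ER. Copa, its largest subunit (chr13:88116825-88116884), read 8.32, 8.65 and 8.59 on d 2, 7.36, 7.24 and 7.88 on d 9 and 7.44, 7.56 and 7.64 on d 16. All later values were below all d 2 values. Copa fell by 1.03 ± 0.19 by d 9 (adjusted p = 0.0116) and by 0.97 ± 0.19 by d 16 (adjusted p = 0.00848), and both calls were kept without any 1 array. A second, dimmer Copa probe changed by -0.65 to d 9, where its values overlapped with d 2 and it did not pass (adjusted p = 0.113). By d 16 that probe passed, with a change of -1.035 (adjusted p = 0.0205). Copg (now Copg1) read 8.69, 9.01 and 8.94 on d 2, 8.03, 7.99 and 8.43 on d 9 and 8.15, 8.28 and 8.28 on d 16, and fell by 0.73 ± 0.16 and 0.64 ± 0.16 (adjusted p = 0.0189 and 0.0197). Copb2 fell by 0.66 ± 0.20 by d 16 (adjusted p = 0.0409) and by 0.67 on its second probe. The 4 remaining subunits did not pass: Copb1 changed by -0.21 and -0.31, Cope by -0.10 and -0.29, Copz1 by 0.16 and -0.23, and Copz2 by 0.07 and -0.01. Copg lost its d 9 call without d 2 of rat 2 or d 9 of rat 2, and Copg and Copb2 their d 16 calls without d 2 of rat 2 or 3 or any 1 d 16 array, Copb2 also without d 9 of rat 2 (adjusted p of 0.0508 to 0.115). With 75th percentile scaling only 1 COPI gene was called lower by d 9 and 2 by d 16.

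COPII, which carries new protein out of the ER, had 1 called gene among 9 tested, a fall by d 16. By then 12.6% of all tested gene names fell. Sec23a, an inner coat subunit well above background on 1 d 9 array alone, was higher on d 9 with a bound of 1.29-fold. Sec23a passed only with the dam as a block (adjusted p = 0.14 without and 0.0242 with it). Sec13, an outer-cage subunit that is also part of the nuclear pore, fell by 0.60 ± 0.19 by d 16 (adjusted p = 0.0457), from 9.79, 9.68 and 9.71 on d 2 to 9.10, 9.24 and 9.05. The fall of Sec13 no longer passed with the dam as a block (adjusted p = 0.0661), or without d 9 of rat 2 or any 1 d 2 or d 16 array (adjusted p of 0.0674 to 0.131). With 75th percentile scaling it did not pass either. Under spike-in scaling Sec13 changed by -0.06 by d 16, -0.65 from the median of all tested genes. Sec16b, Sec23b, Sec23ip, Sec24a, Sec24b, Sec24d and Sec31a changed by -0.35 to 0.38 on both days, with no call. Sec24a had a dimmer probe that fell by 0.93 by d 16 (adjusted p = 0.0246), against 0.02 on the counted probe. By current names the array holds 3 more genes of the rule beside Tra1, looked up in the same way. Sec24c (LOC685144 in the files), a COPII cargo subunit, differed by -0.04 on d 9 and fell by 0.96 by d 16 (adjusted p = 0.0455), a call lost with the dam as a block (adjusted p = 0.0699). Copg2 (RGD1566215), the other γ subunit of COPI, changed by 0.17 and 0.21 on its brightest probe and did not pass, and Pdia6l1 (LOC685171) was well above background on no array. The ER and Golgi SNAREs Sec22a and Sec22b were 0.46 and 0.35 higher on d 9 and did not pass (adjusted p = 0.263 and 0.0779).

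**Figure D4:**
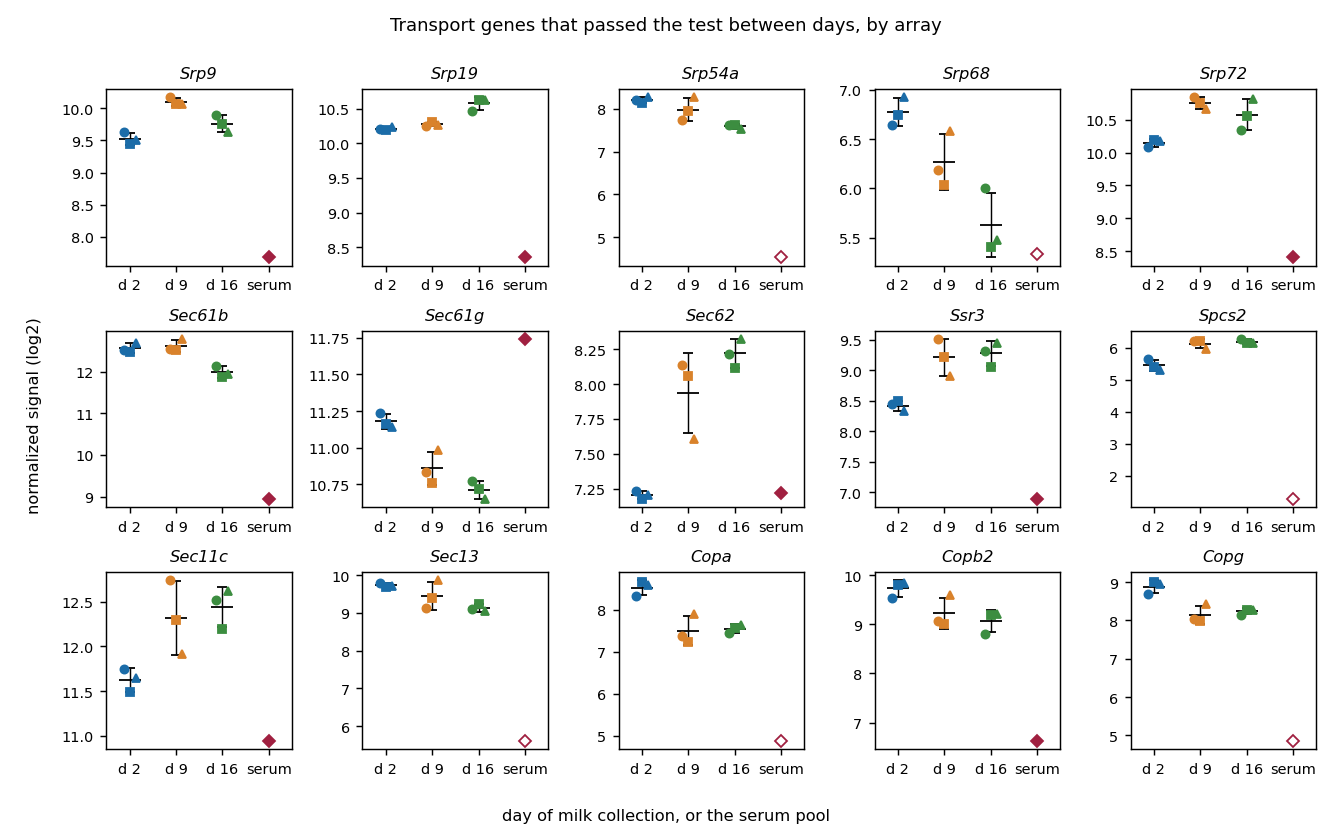
Normalized signal (log2) by array of the 15 transport genes that passed a test between days, with rats 1, 2 and 3 as circle, square and triangle, bars for the day mean and SD (n = 3), and serum as a diamond, open where not well above background; each panel has its own vertical scale. The day means of Sec62, Ssr3 and Spcs2 lie above d 2 on both later days and those of Copa, Copb2 and Copg below. Sec61b falls on d 16 alone. Under spike-in scaling Copa and Copg lay above d 2 on d 9, and Sec61b and Sec61g did not fall. There Copg, Copb2, Srp54a and Sec13 changed by only -0.10 to -0.04 by d 16.

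The wider list of vesicle transport genes outside the name rule held calls in both directions. Of 54 tested genes, 13 rose and 2 fell by d 9, and 15 rose and 6 fell by d 16, where 11.0% and 6.65% of all tested gene names rose and fell by d 9 and 16.2% and 12.6% by d 16. Picked after its values were seen, Arcn1, the δ subunit of the same COPI coat, rose by 0.64 to d 9 (adjusted p = 0.021) and was 0.43 higher on d 16 (adjusted p = 0.0564). Bcap29, an ER export chaperone, rose by 1.20 and 1.32 (adjusted p = 0.0115 and 0.00485), and Arf3, a small GTPase of Golgi coats picked in the same way as Arcn1, rose by 0.70 and 0.95 (adjusted p = 0.0145 and 0.00283). Preb, the ER factor that loads the GTPase Sar1 for COPII, fell by 0.77 and 0.95 (adjusted p = 0.0192 and 0.00567). Tmed2, a cargo receptor of the p24 family, rose by 0.95 and 1.03 (adjusted p = 0.0453 and 0.024). The TRAPP tethering complex was split: Trappc6b rose by 0.90 and 1.08 (adjusted p = 0.0259 and 0.00891), Trappc5 fell by 0.49 and 0.59 (adjusted p = 0.0369 and 0.0126), and Trappc3 fell by 0.73 by d 16 (adjusted p = 0.014). Arfgap2, which switches off Arf GTPases on COPI coats, fell by 0.86 by d 16 (adjusted p = 0.0184). Of 19 tested folding and glycan enzymes 1 rose by d 9 and 5 by d 16. The 1 on d 9 was Prkcsh, a subunit of the glucosidase that trims new glycans, at 0.93 and on d 16 0.86 (adjusted p = 0.00843 and 0.00617), and on d 16 Ero1l (now Ero1a), the oxidase that feeds the disulfide isomerases, was 1.42 ± 0.28 higher (adjusted p = 0.00955). Of 7 genes of ER-associated degradation, 1 changed: Vcp, the ATPase that pulls substrates out, fell by 1.07 by d 16 (adjusted p = 0.00751).

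A single d 2 array shared its slide with the d 9 arrays, so slide could be set against the d 2 to d 9 changes. With slide as a fixed block, where the day effect rests on d 2 of rat 3 alone, no member passed, but neither did most of the array, with 146 of 16849 probes called against 2975 without the block. The estimates were 0.93 against 1.07 for Atf4, 0.61 against 0.51 for Hspa5 and 0.89 against 1.24 for Dnajb9. Sec62 stood at 0.73 in both, Spcs2 at 0.81 against 0.68 and Copa at -1.10 against -1.03. The values with the block are also the differences within the shared slide. In these genes all d 2 values lay on the same side of all d 9 values. Their direction could therefore not turn, and that it was kept says nothing about the slide.

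The transport genes mostly stood higher in whey than in serum and the folding genes lay on both sides, with 1 serum array and no test. Of 40 transport genes that were well above background on any array, 28 passed 4-fold upward in the mean of the whey arrays and 0 downward. Of 11 folding genes, 2 were more than 4-fold higher (Canx and Dnajb9) and 0 lower. In both Canx and Dnajb9 serum was not well above background, so that only a bound can be given, 5.6-fold and 4.1-fold. Of all gene names compared, 25.9% passed 4-fold on the side of whey and 17.0% on the side of serum. With normexp background correction the 28 became 9, and the 2 folding genes 0. The spike-in controls put serum far lower: under that scaling all 24 members seen on all 10 arrays stood above serum, where the median of all such gene names was 3.69, and so the directions given here are relative to the bulk of genes. In 17 of the 28 transport genes serum was not well above background, so that only a bound can be given, and that bound exceeded 4-fold in 13. Among genes well above background on all 10 arrays the median difference was 2.08 over 17 transport genes and -0.65 over 6 folding genes, and 0.14 over all 4214 such gene names. With 75th percentile scaling these medians were 2.97, 0.08 and 0.88, so that the sign for the folding genes depends on the scaling.

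Of the transport genes seen on all 10 arrays, Sec61b stood the furthest above serum, at 11.88 to 12.80 in whey and 8.94 in serum, 11.0-fold. Ssr2 followed at 8.36-fold, then Srpr at 7.97-fold, Ssr4 at 6.73-fold and Copb2 at 6.55-fold, each above serum on 9 of 9 whey arrays. In serum Ssr2, Srpr and Copb2 were well above background but not above 20 in processed signal. By the rule used here they were thus not detected in serum, and their folds rest on a dim serum spot. Sec23b, a COPII coat subunit, read 7.94 to 9.27 in whey and was not well above background in serum, with a bound of 37.0-fold higher. The bound was 25.8-fold for Copz1, set by its own unflagged serum signal of 3.36, and 17.1-, 15.8- and 13.2-fold for Sec24a, Sec24b and Sec16b. These bounds are not strict, since serum spots that were not flagged could be brighter than the lowest flagged one, as Srprb at 6.18.

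Among genes seen on all 10 arrays, 3 folding genes and 2 transport genes stood lower in whey, though none of them did under spike-in scaling. Ddit3 was 4.58 to 5.76 in whey and 7.08 in serum, 3.57-fold lower in whey. Calr was 5.21 to 6.79 against 7.89, and Atf6 4.79 to 5.67 against 6.62, in both with all 9 whey arrays below serum. The serum spots of Ddit3 and Atf6 were well above background but not above 20 in processed signal, so neither gene counted as detected there. Spcs1 was 1.24-fold lower, but higher with 75th percentile scaling. Sec61g, with 10.65 to 11.24 in whey and 11.74 in serum, was the transport gene furthest below it, 1.77-fold, opposite to its channel partner Sec61b. Hspa5 lay on both sides of serum, with 7.36 to 8.29 in whey and 7.74 in serum. The erythroid markers had a summed signal of 364000 in serum against 63.1 to 297 in whey, and their part in these differences was not tested.

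**Figure D5:**
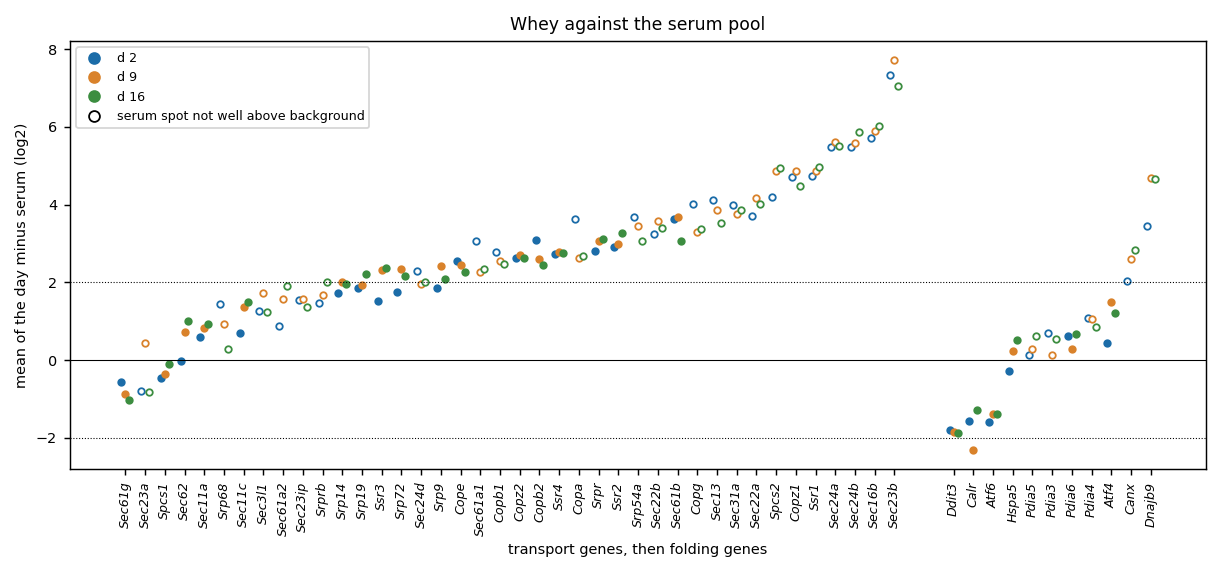
Mean of each whey day minus the serum array (log2) for the 40 transport genes and 11 folding genes well above background on at least 1 array, sorted by the mean over the days; dotted lines mark 4-fold, and open points mean that the serum spot was not well above background. Open points are differences against a serum spot near background and are no measured fold. Of the filled points Sec61b lies highest, at 3.46 in the mean over the arrays, and Ddit3, Calr and Atf6 lie below 0 on each day, though not under spike-in scaling. Some filled points, among them Ssr2, Srpr, Copb2, Ddit3 and Atf6, had a serum signal too low to count as detected.

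Outside both classes, Sec14l2, a lipid-binding protein of the squalene pathway, fell by 1.39 ± 0.18 by d 9 and 1.01 ± 0.18 by d 16 (adjusted p = 0.00432 and 0.00623), the largest called fall among the matched names, but under spike-in scaling it stood 0.01 higher on d 9. Sec14l1 did not change beyond the error.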

How the data were processed

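Total RNA of rat milk whey (d 2, d 9 and d 16, 3 dams each) and of the mixed serum of d 21 was measured on Agilent rat arrays of 60-base probes with a single dye, from 100 ng per array. The authors extracted intensity values with Agilent Feature Extraction 9.5.3.1 (per the submitters' processing notes): the deposited processed signal is a background-subtracted intensity on a linear scale that is not normalized between arrays, and the mean and background signals are uncorrected intensity values. The deposited well above background and outlier flags are other values, of 0 or 1. Another deposited table has 10 sample columns whose names match no label, and it was not used. Groups and dam numbers came from the titles.

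Processed signals were put on the log2 scale and quantile normalized across the 10 arrays, the normalization that the study's methods name, without control spots; outlier spots were set to missing and spots of a probe averaged. Days were compared with limma 3.58.1 in R 4.3.3 (two-sided, 9 whey arrays, 1.82 prior degrees of freedom) over the 16849 probes that were well above background with a signal above 20 on at least 1 whey array, with Benjamini-Hochberg adjustment and a threshold of 0.05. Each gene was counted by the probe with the most arrays flagged well above background, the brightest on ties. Of the 86 member probes, 75 had a RefSeq accession in the GRCr8 table, used for names and promoters. A fold against a group where a probe was well above background on no array is a bound, in which each dim array enters with its lowest flagged signal or with the probe's own signal, whichever is higher. Spots that were not flagged can be brighter than that lowest flagged signal, so it is no detection limit and the bounds are not strict. Probe positions are those of the files (rn4). The number of arrays limits the precision. The p-values rest on the spread among arrays of the same day, pooled over the days, with no term for dam, slide or scan day. On d 2 that spread also holds a difference in slide. The fit was also run on simulated arrays with independent noise and known steps. These held no dam, slide or scan-day effect, so the run cannot speak to such effects in the data.

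Named between days were a fixed list of pathway genes and up to 8 called rises and 8 called falls of each pair of days; against serum, up to 5 differences each way among genes well above background on all arrays; and up to 5 called rises and falls of the wider list. Tra1, Sec24c, Copg2, Pdia6l1, Asns, Armet, Dnajc10, Arcn1 and Arf3 fall outside this rule and were picked after their values were seen. The members and all lists were chosen with earlier results of these data known. The same dams gave milk on each day, so dam numbers pair the arrays: deviations from the day means correlated at a median of 0.11 (-0.02 to 0.22, 9 pairs) within dams and -0.05 (18 pairs) between dams. Alternatives were other scalings, background corrections, filters, tests and blocks and leaving out each array; their effect is given at the end.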

Additional observations from a re-analysis of the deposited data

How the results depend on the processing

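The called changes of single genes kept their direction under every alternative except scaling to the spike-in controls, under which the median change of all tested genes was 1.51 to d 9 and 0.59 to d 16. There Copa (0.44), Copg (0.76) and Sec14l2 (0.009) reversed to d 9 and Sec61g (0.003) and Sec61b (0.016) to d 16. Relative to that median all 11 called changes to d 9 and all 18 to d 16 kept their direction. That could hardly fail, because this scaling shifts all genes of an array alike. Taking off the median nearly returned the fit reported, with moves of at most 0.108 to d 9 and 0.137 to d 16. Spike-in scaling called 17 transport and 5 folding genes to d 9, 0 and 0 to d 16, and 6 genes in the F test.

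The count of transport genes called to d 9, 7 in the fit reported, was 11 with normexp background, 3 with the Tukey-Kramer test, 3 with only the arrays of the 2 days, 0 with slide as a fixed block and 11 over every detected probe; folding genes went from 3 to 0 with slide as a fixed block. Leaving out single arrays gave 1 to 9 transport and 2 to 3 folding genes to d 9, 5 to 13 and 3 to 5 to d 16, and 7 to 16 in the F test. The Tukey-Kramer test called 8 transport genes to d 16. From d 9 to d 16 normexp background called 3 transport genes and 1 folding gene, and minimum signal 100, the filter asking for all 9 whey arrays well above background and slide as a random block each called 1 and 1.

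With the dam as a replicate block, 8 transport and 3 folding genes were called to d 9 and 12 and 4 to d 16; of the 29 called changes 28 kept their call and Sec13 lost it (-0.60), while Sec23a to d 9 gained one. With 75th percentile scaling 25 of the 29 kept their call and 4 lost it, among them Sec13 and Srp19 to d 16.

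Against serum, transport genes more than 4-fold higher in whey numbered 9 with normexp background and 11 among genes well above background on all 10 arrays, and folding genes 1 with 75th percentile scaling, 0 with normexp background, 7 with spike-in scaling and 0 among genes well above background on all 10 arrays. With minimum signal 100, 3 folding genes were detected on d 2, 5 on d 16 and 1 in serum, and 3 transport genes in serum. Asking for well above background alone on the serum array gave 17 transport and 6 folding genes. The serum array has no replicate, and 28 of the 51 transport and folding genes compared were not well above background there.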
